A study of Mus musculus with 4 samples.

Results

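The genes described here are 10 genes of the actin cytoskeleton that are known or likely targets of serum response factor (SRF), measured by RNA-seq in mouse embryonic stem cells (ESCs). They are the actins Actb, Actg1, Acta2 and Actc1, the calponin family genes Tagln, Tagln2 and Cnn2, the tropomyosin gene Tpm1, the vinculin gene Vcl and Srf itself. They were chosen by symbol, as 10 of the 19645 features with a value in each library, and the list was drawn up after the higher level of Actb in these libraries was already known. The knockout (KO) against wild-type (WT) values of the 10 genes are therefore given as a description, with no test. The question addressed was whether the difference in Actb is shared by other genes of the same pathway.

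There were 4 libraries, 2 from WT and 2 from Bmal1 KO cells, all grown on gelatin in medium with serum and leukemia inhibitory factor. The KO cells carry a CRISPR-Cas9 frameshift deletion in Arntl, the gene for the circadian transcription factor BMAL1, and come from 1 clonal line, so that genotype and clone cannot be told apart. The study calls the 2 libraries of a genotype biological replicates, but the labels name no separate cultures or clones, so that p-values measure the spread between these libraries only. Values are FPKM, which counts sequenced fragments relative to transcript length and to library size and can therefore be compared between genes. Log2 fold changes are of FPKM + 0.1, KO minus WT, from the limma model, and folds are on the same scale. The depth of the libraries is unknown, since the files hold no read counts. Pairwise Pearson correlations of log2 levels were 0.987 between the WT libraries, 0.986 between the KO libraries and 0.969 to 0.972 between genotypes. Features without a gene symbol took 26.8% and 37.3% of the summed FPKM in WT and 19.0% and 18.1% in KO, and the part of this difference in the values below was not tested beyond the rescaled alternative of the closing section. Arntl stood at 6.05 and 6.29 FPKM in WT and at 5.95 and 5.92 FPKM in KO, so that the RNA level does not check the labels of a frameshift allele. The pluripotency genes Pou5f1, Zfp42 and Dppa5a lay between 611 and 3045 FPKM, and 4 other pluripotency markers with calls are given with the marker lists at the end.

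Actin monomers assemble into filaments that carry cell shape, adhesion and contraction, and the same monomers regulate transcription. Free monomers hold the myocardin-related transcription factors (MRTFs, genes Mkl1 and Mkl2) in the cytoplasm. When filaments grow, MRTFs enter the nucleus and act with SRF on genes that encode actins and actin-binding proteins, at a DNA element called the CArG box. The ternary complex factors (TCFs, genes Elk1, Elk3 and Elk4) compete for SRF and direct it to immediate-early genes. Actb and Actg1 encode the cytoplasmic actins of every cell, whereas Acta2 and Actc1 encode actins of smooth muscle and heart.

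The sequences before the start sites of these genes are shown because SRF binds the CArG box. RefSeq promoter windows of GRCm38.p6, 250 bases before the start, were at hand for 8 of the 10 genes, all but Actb and Tagln. A CArG box, C and C followed by 6 bases that are each A or T and then G and G, was present in 5 of the 8 windows and in 1.47% of all 32851 windows. This pattern reads the same on both strands. Because the genes were chosen as known or likely targets of SRF, nothing is read from the difference between these shares. Srf holds 2 boxes, which begin 82 and 62 bases before its start, and its single-box counterparts begin 47 (Actc1), 56 (Cnn2), 90 (Actg1) and 227 (Vcl) bases before theirs. The stretches are given 5′ to 3′ on the strand of the gene, with the boxes in capitals.
Srf, chr17:46556200-46556259, minus strand: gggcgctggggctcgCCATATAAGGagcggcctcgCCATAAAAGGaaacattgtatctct
Actg1, chr11:120348561-120348600, minus strand: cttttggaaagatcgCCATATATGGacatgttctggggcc
Cnn2, chr10:79988529-79988568, plus strand: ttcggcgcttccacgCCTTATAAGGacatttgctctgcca
Vcl, chr14:20929156-20929195, plus strand: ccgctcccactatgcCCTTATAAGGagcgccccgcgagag
Actc1, chr2:114052898-114052937, minus strand: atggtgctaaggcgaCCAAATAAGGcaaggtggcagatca

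The window of Acta2 held no such box but did hold a CArG-like element, in which 1 of the 6 middle bases is not A or T. Such an element was found in 2 of the 8 windows, those of Acta2 and Actc1, and in 7.24% of all windows. Of the 2 such elements of Acta2, the one farther from the start is shown in capitals.
Acta2, chr19:34255423-34255482, minus strand: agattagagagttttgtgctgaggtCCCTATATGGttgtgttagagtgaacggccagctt

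BMAL1 binds DNA with CLOCK at E-boxes, and the E-box CACGTG, which is its own reverse complement, was present in 1 of the 8 windows and in 6.02% of all windows. It lies in the window of Actg1, 141 to 136 bases before the start and upstream of the CArG box, and does not overlap it.
Actg1, chr11:120348604-120348663, minus strand: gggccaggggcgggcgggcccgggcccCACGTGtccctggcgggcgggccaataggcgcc
None of these matches is a measurement of binding.

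The 10 genes spanned a wide range of levels. Actg1 was the most abundant, with 1317 and 1218 FPKM in WT and 1213 and 1103 FPKM in KO, followed by Actb. Tagln2 lay between 139 and 175 FPKM, Tpm1, Cnn2, Srf and Vcl lay between 13.6 and 42.3 FPKM, and Tagln lay between 1.93 and 5.59 FPKM. Over the 4 libraries, Vcl and Srf overlapped in level, whereas every other gene of this order was above the next in all libraries. The muscle actins were close to 0. Acta2 was at 0.242 and 0.295 FPKM in WT and at 0.296 and 0.275 FPKM in KO, and Actc1 was at 0.0382 and 0.0389 FPKM in WT and was listed at 0 in both KO libraries. The skeletal muscle actin Acta1 lay between 0.142 and 0.235 FPKM.

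**Figure D1:**
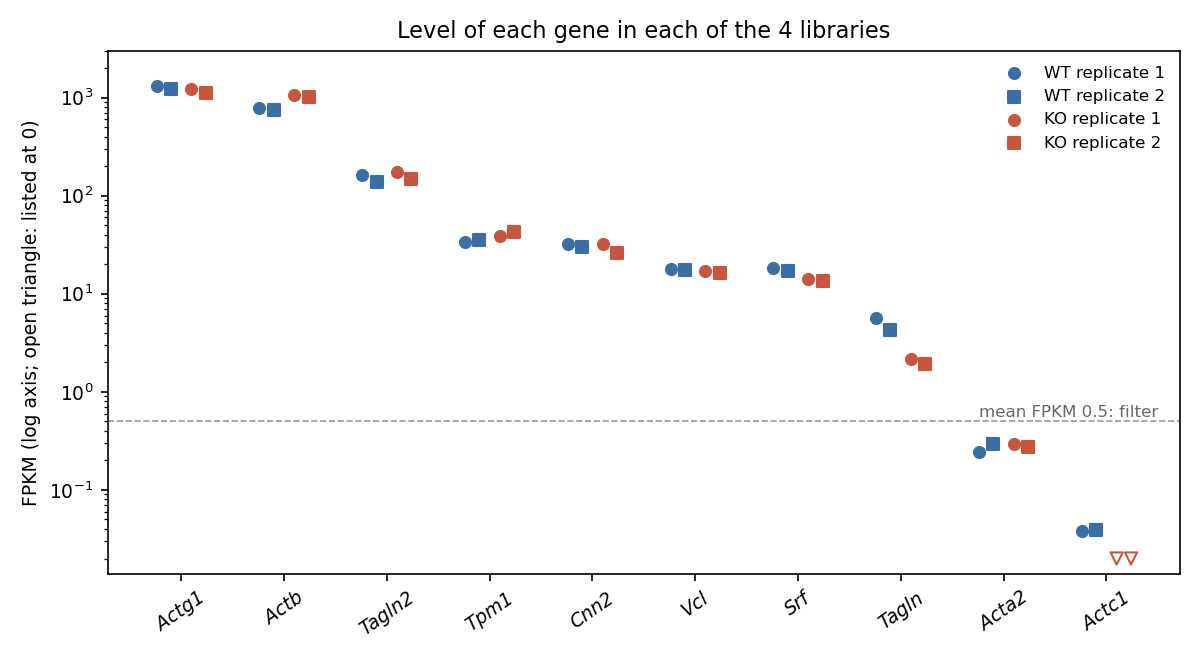
FPKM of each gene (log axis) in WT replicates 1 and 2 (blue) and KO replicates 1 and 2 (red), ordered by mean level, with open triangles for a gene listed at 0. Both KO points lie above both WT points for Actb and Tpm1 and below them for Actg1, Vcl, Srf, Tagln and Actc1, and Acta2 and Actc1 lie under the dashed line of the filter at a mean FPKM of 0.5.

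Actb is on chromosome 5 from 142903115 to 142906754 on the minus strand (GRCm38, GENCODE M21). Its FPKM was 788 and 754 in WT and 1070 and 1024 in KO. Both KO libraries were above both WT libraries, with means of 771 ± 23.7 (SD, n = 2) in WT and 1047 ± 32.7 (SD, n = 2) in KO, and a log2 fold change of 0.44 (SE 0.08), a 1.36-fold higher level.

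Actg1, the second cytoplasmic actin, is on chromosome 11 from 120345690 to 120348542 on the minus strand. Its KO libraries were both below its WT libraries by a small margin, with a log2 fold change of -0.13 (SE 0.09), which became 0.02 after quantile normalization. Actg1 thus did not share the higher level of Actb under either scaling.

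Because the pair lay in the same libraries, their ratio does not depend on a factor that scales a whole library. Actb made up 37.4% and 38.2% of the summed FPKM of the 5 actin genes with values in WT, and 46.9% and 48.1% in KO, a difference of 9.67 percentage points. The log2 ratio of Actb to Actg1 was -0.74 and -0.69 in WT and -0.18 and -0.11 in KO. The summed actin level itself was 2106 and 1973 FPKM in WT and 2283 and 2127 FPKM in KO. Both KO libraries were thus above both WT libraries, KO replicate 2 by a small margin over WT replicate 1. With 2 libraries against 2, an exact two-sided permutation test cannot give a p below 0.33, so none was run on these ratios.

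Actb is commonly used to normalise other measurements, so its level was also set against 13 genes used for the same purpose. Relative to the geometric mean of those 13 genes, the log2 level of Actb was 1.91 and 1.86 in WT and 2.37 and 2.33 in KO, whereas that of Actg1 was 2.65 and 2.56 in WT and 2.56 and 2.44 in KO. Taken one by one, the ratio of Actb was higher in both KO libraries than in both WT libraries for each of the 13 genes. All 13 ratios share the same Actb values, so they are not 13 separate observations of its higher level. The difference ranged from 0.10 on the log2 scale against Gusb, a lysosomal enzyme gene, to 0.67 against Rplp0, a ribosomal protein gene. None of the 13 reference genes had an adjusted p under 0.05 in limma, adjusted by Benjamini-Hochberg over every tested feature.

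**Figure D2:**
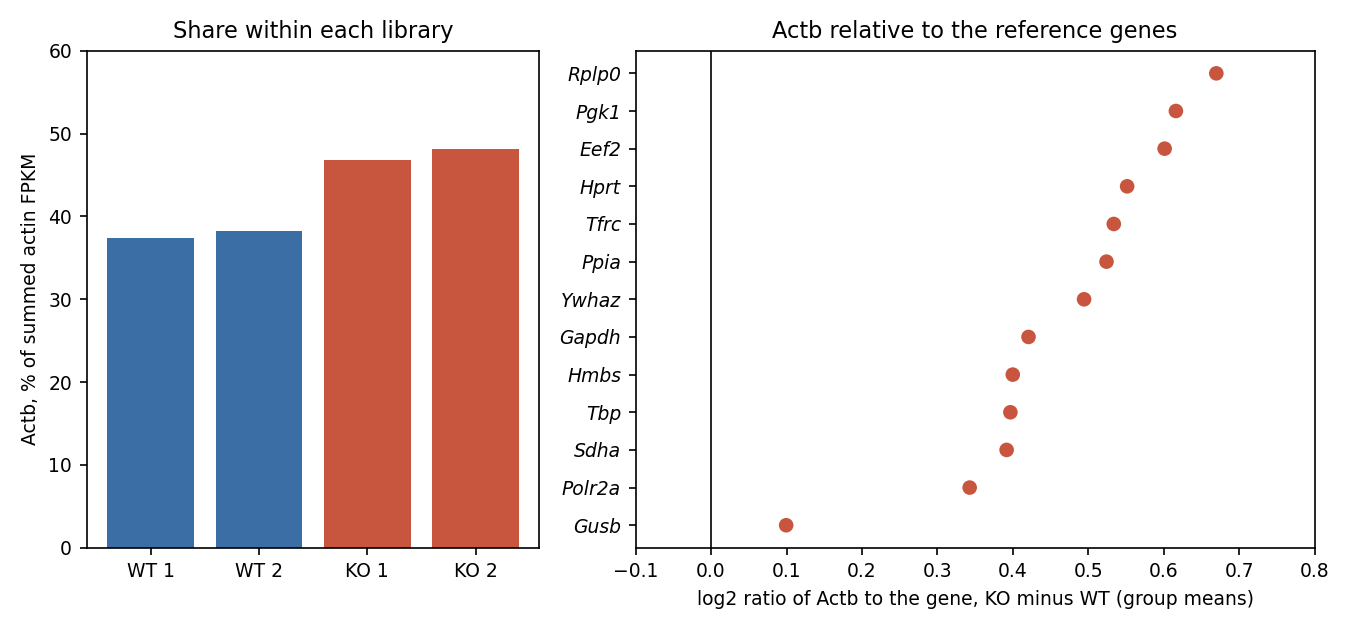
Left, the share of Actb in the summed actin FPKM of each library, in percent (blue, WT; red, KO); right, the difference between KO and WT in the log2 ratio of Actb to each of 13 reference genes, from the group means (red, both KO ratios above both WT ratios). The share is 37.4% and 38.2% in WT and 46.9% and 48.1% in KO, and each of the 13 differences, which share the same Actb values, is above 0.

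The coding sequences of Actb and Actg1 are 88.7% identical over 1128 bases, with a longest identical run of 62 bases. The first 60 coding bases of each, from the GENCODE M21 transcripts Actb-201 and Actg1-202, are shown because they hold 9 of the differences by which reads of the 2 genes can be told apart. Capitals mark the bases that differ.
Actb: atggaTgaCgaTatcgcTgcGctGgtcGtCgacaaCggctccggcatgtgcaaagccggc
Actg1: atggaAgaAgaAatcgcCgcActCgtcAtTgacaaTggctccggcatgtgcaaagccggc
Of all 50-base windows of the Actb transcript, 14.2% also occurred in a transcript of another gene, most of them in Lrrc58 (9.57% of windows). For Actg1 the share was 56.7%, most of it in Gm12715 (51.1% of windows), a gene whose level was not analysed here. Lrrc58 stood at 4.50 and 5.07 FPKM in WT and at 5.93 and 6.13 FPKM in KO, far below Actb. How reads in shared windows were divided among such copies is not given in the sources used here, so the levels of both genes, and of Actg1 above all, are uncertain to that extent.

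Tagln encodes transgelin, a calponin-like protein that binds filaments in smooth muscle and in many cultured cells, and lies on chromosome 9 from 45929619 to 45936058 on the minus strand. Its FPKM was 5.59 and 4.22 in WT and 2.18 and 1.93 in KO. Both KO libraries were below both WT libraries, and the log2 fold change was -1.21 (SE 0.18), a level 2.31-fold lower in KO. Of the 50-base windows of its transcript, 44.5% also occur in Gm48529, an antisense gene with 1241 exonic bases in common. Whether the libraries keep strand is not stated in the sources used here, and without it reads of the pair cannot be told apart. Tagln also shares the coordinates of its feature with the 3 neighbouring genes Bace1, Pcsk7 and Rnf214, whose log2 fold changes were -0.21, 0.12 and -0.05, with adjusted p of 0.331, 0.602 and 0.816 in limma.

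The other calponin family genes among the 10, Tagln2 and Cnn2, did not differ beyond their spread. Tagln2, on chromosome 1 from 172500047 to 172507380 (plus strand), encodes a broadly expressed transgelin and was at 162 and 139 FPKM in WT and at 175 and 147 FPKM in KO. Cnn2, on chromosome 10 from 79988584 to 79996062 (plus strand), encodes the non-muscle calponin 2 and was at 32.3 and 30.0 FPKM in WT and at 32.4 and 25.8 FPKM in KO. The libraries of the genotypes overlapped for both genes, and replicate 1 was the higher in both genotypes. Compared within a replicate number, Tagln2 was higher in KO both times and Cnn2 was not, but the labels pair no libraries. The log2 fold changes were 0.09 (SE 0.12) for Tagln2 and -0.11 (SE 0.13) for Cnn2, and both changed sign when 1 library was left out, to -0.03 without KO replicate 1 for Tagln2 and to 0.06 without KO replicate 2 for Cnn2. The feature of Cnn2 shares its coordinates with 42 others.

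Tpm1 encodes tropomyosin 1, which lies along the filament and sets the access of myosin and severing proteins, and is on chromosome 9 from 67022590 to 67049406 on the minus strand. It was at 33.8 and 35.3 FPKM in WT and at 38.5 and 42.3 FPKM in KO, with a log2 fold change of 0.23 (SE 0.08). Together with Actb it is the second of the 2 genes with both KO libraries above both WT libraries.

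Vcl, on chromosome 14 from 20929398 to 21033676 on the plus strand, encodes vinculin, which couples filaments to adhesion sites. It was at 17.8 and 17.3 FPKM in WT and at 17.0 and 16.4 FPKM in KO, and its log2 fold change of -0.07 (SE 0.08) became 0.004 when features without a symbol were left out and libraries rescaled. The KO libraries were just below the WT libraries as deposited. Its transcript shares 39.2% of its 50-base windows with Ap3m1, which lies on the opposite strand and was at 17.0 FPKM in both WT libraries and at 13.7 and 15.9 FPKM in KO.

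Srf itself, on chromosome 17 from 46548329 to 46556175 on the minus strand, was at 18.5 and 16.9 FPKM in WT and at 14.2 and 13.6 FPKM in KO. Both KO libraries were below both WT libraries, and the log2 fold change was -0.35 (SE 0.09), a level 1.28-fold lower. The gene for the factor therefore stood on the other side of 0 from Actb, as did Tagln.

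Of the 10 genes, 8 passed the filter of a mean of at least 0.5 FPKM. The KO libraries were both above the WT libraries for 2 of the 8 genes, against 27.0% of all features, and below them for 4 of the 8, against 31.7% of all features. Because the genes were selected with this comparison in view, nothing is read from these counts. The median log2 fold change of the 8 genes was -0.09, and -0.11 without Actb, beside -0.02 for all tested features. The values thus ran from -1.21 to 0.44. Besides Actb, only Tpm1 had both KO libraries above both WT libraries. Tagln2 was higher in KO within each replicate number, but its libraries overlapped between genotypes. Acta2 and Actc1 did not pass the filter and have no fitted value.

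**Figure D3:**
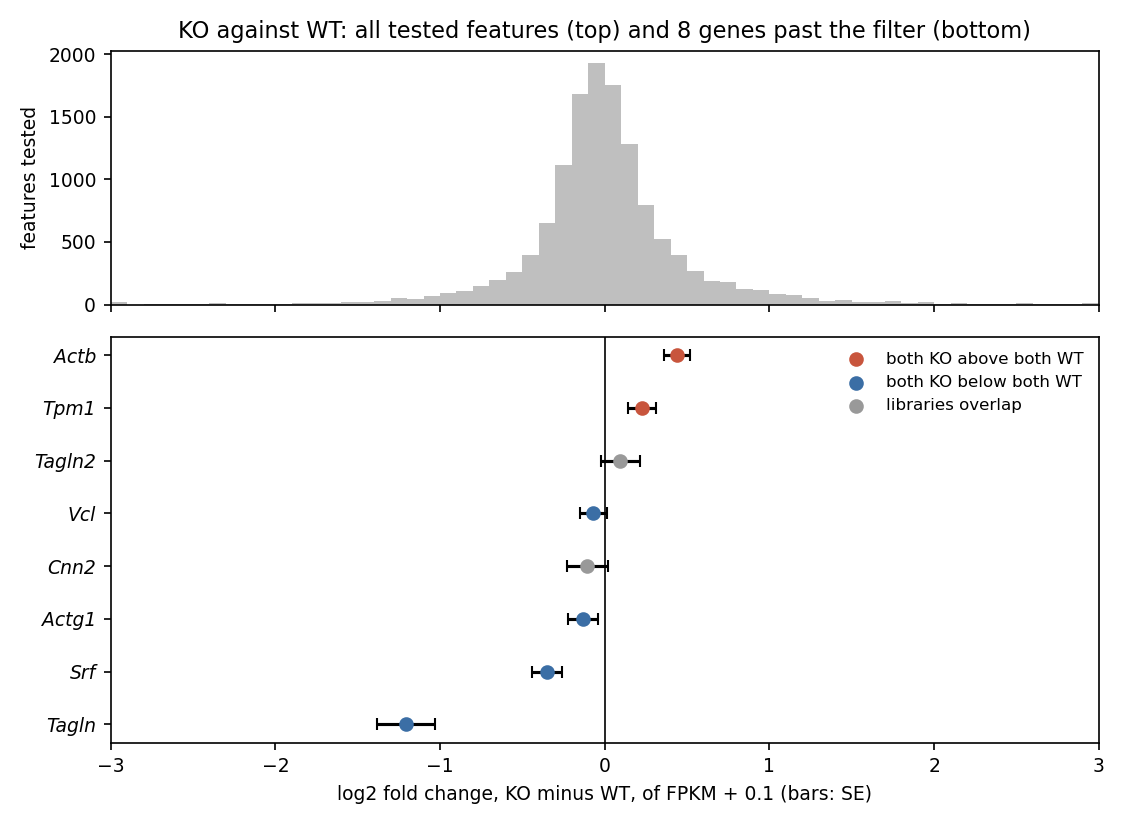
Top, the number of tested features in bins of 0.1 of the log2 fold change, KO minus WT, of FPKM + 0.1; bottom, the same quantity for the 8 genes that passed the filter, with its SE, coloured by whether both KO libraries lie above (red) or below (blue) both WT libraries or overlap them (grey). The bins run from -3 to 3 and hold all tested features, so that the end bins also hold any larger differences. Actb at 0.44 and Tagln at -1.21 are the extremes of the 8 genes. The SE bars of Vcl, Cnn2 and Tagln2 cross 0, Actg1 and Vcl change sign under 1 alternative scaling each, and Tagln2 and Cnn2 do when 1 library is left out.

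Of the factors that act with SRF, 2 of the 3 TCF genes rose. Elk3 rose from 1.19 and 1.23 FPKM in WT to 2.73 and 3.08 FPKM in KO, a log2 fold change of 1.19 (SE 0.16, adjusted p = 0.0109 in limma). Elk1 rose from 11.2 and 9.69 FPKM to 14.1 and 14.4 FPKM, with a log2 fold change of 0.44 (SE 0.10, adjusted p = 0.0482 in limma), and its call was lost without WT replicate 2 and without either KO replicate, with adjusted p between 0.0140 and 0.173 over all alternatives. The third TCF gene, Elk4, had a log2 fold change of 0.24 (SE 0.15), with an adjusted p of 0.339 in limma.

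The MRTF genes had small differences. Mkl1 was at 7.43 and 6.69 FPKM in WT and at 6.89 and 6.28 FPKM in KO, and Mkl2 was at 3.62 and 3.55 FPKM in WT and at 4.04 and 2.77 FPKM in KO. Both had a log2 fold change of -0.10, with adjusted p of 0.607 and 0.772 in limma, and that of Mkl2 was 0.17 without KO replicate 2. Scai, a suppressor of MRTF, had a log2 fold change of -0.29 (adjusted p = 0.302 in limma). Myocd, the muscle member of the MRTF family, was listed at 0 in 3 of the 4 libraries. In all, 2 of 6 tested cofactor genes rose and none fell at an adjusted p under 0.05, where 6.85% of all 12990 tested features rose and 5.60% fell. These shares ranged from 2.91% to 13.9% and from 1.93% to 17.3% over the alternatives, and the count of cofactor genes that rose was 1 or 2.

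Targets usually assigned to MRTF and SRF moved in both directions. Beside 6.85% of all tested features that rose and 5.60% that fell, this list had 5 that rose and 1 that fell among 21 tested. The other 15 did not pass the test, and the median log2 fold change was 0.13. Over the alternatives 2 to 8 rose and 1 fell. The matricellular genes Ctgf and Cyr61, which are also known targets of YAP, rose by 1.00 (SE 0.10, adjusted p = 0.00558) and 0.95 (SE 0.14, adjusted p = 0.0151) on the log2 scale in limma. Ctgf was at 6.76 and 6.15 FPKM in WT and at 12.7 and 13.3 FPKM in KO. Myh9, the heavy chain of non-muscle myosin IIA, rose from 47.0 and 42.4 FPKM to 62.0 and 61.4 FPKM (log2 fold change 0.47, adjusted p = 0.0224 in limma).

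Myl9, the regulatory light chain of smooth muscle and non-muscle myosin, was the 1 gene of this list that fell. It was at 7.02 and 5.84 FPKM in WT and at 2.76 and 2.101 FPKM in KO, with a log2 fold change of -1.37 (SE 0.18, adjusted p = 0.00983 in limma). The other 2 genes that rose, named after their values were seen, were the calponin gene Cnn3 (0.44) and the LIM domain gene Fhl1 (0.58). Cnn3 lost its call without KO replicate 2 and Fhl1 without WT replicate 1 or KO replicate 2, with highest adjusted p of 0.0740 and 0.0975 in limma over all alternatives.

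Immediate-early genes of the TCF arm gave 1 call, a fall, among 8 tested, where 5.60% of all tested features fell. Egr1, a zinc finger transcription factor induced by serum, fell from 13.4 and 12.1 FPKM in WT to 7.60 and 7.14 FPKM in KO, with a log2 fold change of -0.78 (SE 0.10, adjusted p = 0.00994 in limma). None of the other 7 tested genes of this list passed the test, and the median over all 8 was -0.03.

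Genes for factors that start and extend filaments included 4 that fell and 1 that rose among 31 tested, with 2 to 7 and 0 to 3 over the alternatives. For all tested features the shares were 5.60% lower and 6.85% higher. Cobl, a nucleator with several actin-binding domains, fell from 47.8 and 45.2 FPKM to 29.0 and 29.1 FPKM (log2 fold change -0.68, SE 0.08, adjusted p = 0.00708 in limma). The nucleator genes Spire1 and Spire2 fell by 0.73 and 0.43 and the formin gene Fmnl3 fell by 0.53 on the log2 scale, with adjusted p of 0.0257, 0.0300 and 0.0229 in limma. Spire2 lost its call without any 1 of the 4 libraries, Spire1 without WT replicate 2 and Fmnl3 without KO replicate 1, with highest adjusted p of 0.0836, 0.0639 and 0.0538 over all alternatives. The formin gene that rose, Fmnl1 (0.94), is named after its values were seen and lost its call without KO replicate 1, with a highest adjusted p of 0.125 in limma over all alternatives.

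Among 25 tested genes for proteins that bind monomers, sever filaments or cap their ends, 2 rose and 2 fell, with 2 to 3 and 2 to 6 over the alternatives. The shares of all tested features that rose and fell were 6.85% and 5.60%. Tmsb10, which encodes a thymosin that sequesters monomers, rose from 969 and 1036 FPKM in WT to 1824 and 1736 FPKM in KO (log2 fold change 0.83, SE 0.09, adjusted p = 0.00587 in limma). Capg, which caps barbed ends, rose by 0.71 (adjusted p = 0.0148 in limma). Dstn, which encodes destrin, a protein that severs filaments and removes monomers from them, fell from 339 and 397 FPKM to 215 and 246 FPKM (log2 fold change -0.67, adjusted p = 0.0187 in limma). Eps8, which caps and bundles filaments, fell by 0.92 (adjusted p = 0.0111 in limma).

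Crosslinkers and adhesion linkers, the group to which Vcl belongs by function, gave 2 genes that rose and 2 that fell among 27 tested, with 1 to 8 and 1 to 3 over the alternatives. Across all tested features, 6.85% rose and 5.60% fell. Parvb, which encodes a parvin at integrin adhesions, rose from 42.9 and 37.8 FPKM to 88.9 and 80.4 FPKM (log2 fold change 1.07, SE 0.10, adjusted p = 0.00473 in limma). The filamin gene Flnc rose by 0.92 (adjusted p = 0.0305), whereas the alpha-actinin gene Actn3 fell by 0.92 (adjusted p = 0.00789) and Ezr, which encodes the membrane linker ezrin, fell by 0.32 (adjusted p = 0.0383), all on the log2 scale in limma. Flnc lost its call without KO replicate 1 and Ezr without any 1 of the 4 libraries, with highest adjusted p of 0.0755 and 0.154 over all alternatives.

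Among 22 tested genes of myosin II and its regulators, 1 rose and 2 fell, with 0 to 2 and 0 to 7 over the alternatives. By comparison, 6.85% of all tested features rose and 5.60% fell. The myosin light chain gene Myl12b rose by 0.37 (adjusted p = 0.0317), the small GTPase gene Rhob fell by 0.70 (adjusted p = 0.0187) and Myh10, the heavy chain of non-muscle myosin IIB, fell by 0.35 (adjusted p = 0.0441), all on the log2 scale in limma. Myl12b lost its call without either WT replicate and without KO replicate 1, and Myh10 lost it without any 1 library, with highest adjusted p of 0.125 and 0.162 over all alternatives. Myh9 and Myh10, 2 heavy chains of the same motor family, thus stood on opposite sides of 0.

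**Figure D4:**
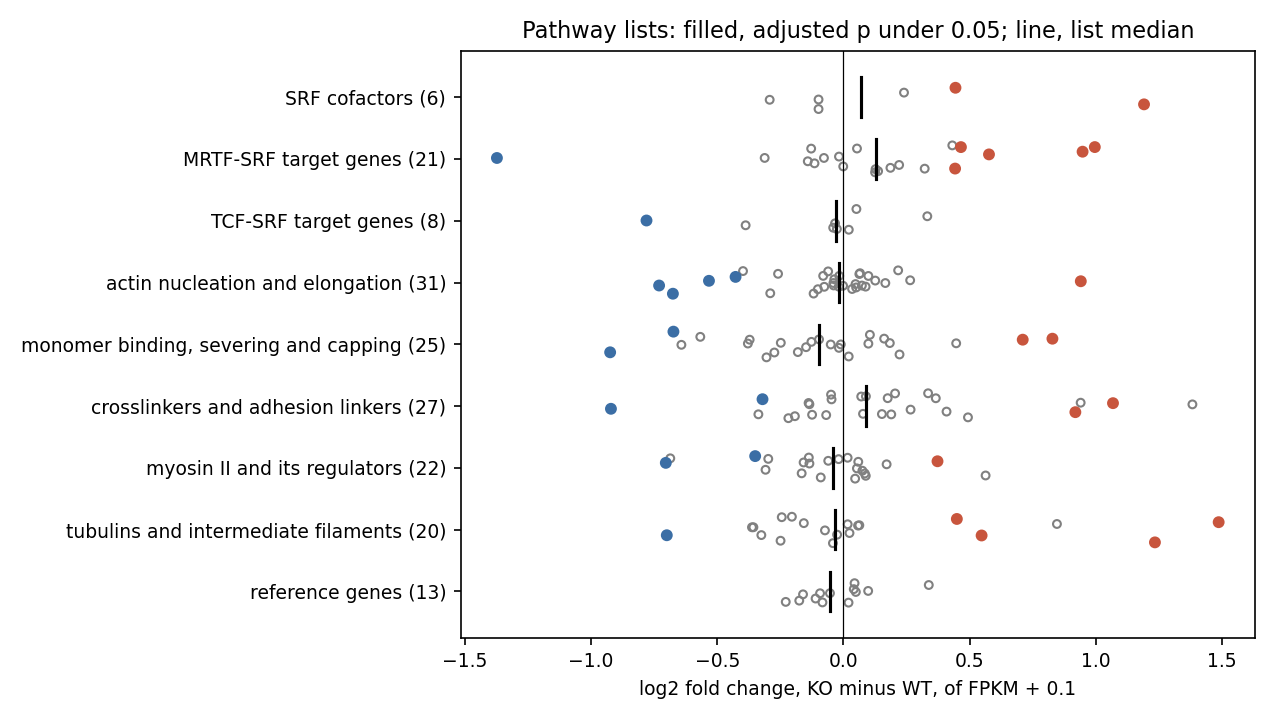
Log2 fold change, KO minus WT, of FPKM + 0.1 for each tested gene of 9 lists, with the number tested in brackets, filled where the adjusted p is under 0.05 in limma (red, higher; blue, lower) and with the list median as a black line. Filled points lie on both sides of 0 in 6 of the 9 lists, and the medians lie between -0.10 and 0.13.

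Over the 140 tested genes of these 7 actin and SRF lists, none of them among the 10 genes above, 13 rose (9.29%) and 12 fell (8.57%), beside the 6.85% and 5.60% of all tested features, and 3 (2.14%) also differed by more than 2-fold, where 4.14% of all features did. The median log2 fold change was -0.01. Because the lists, like the 10 genes, were chosen with earlier results of these data known, nothing is read from these counts and shares. When only features with a symbol were kept and rescaled, 67.8% of all calls were higher, against 55.0% as deposited. Genes of the other filament systems were mixed as well. Of 20 tested tubulin and intermediate filament genes, 4 rose and 1 fell, with 2 to 5 and 1 to 7 over the alternatives. Tuba4a rose by 0.55 (adjusted p = 0.0106), the muscle intermediate filament gene Des by 1.23 (adjusted p = 0.0145) and the vimentin gene Vim by 0.45 (adjusted p = 0.0330), and the neuronal tubulin gene Tubb3 fell by 0.70 (adjusted p = 0.00827), all on the log2 scale in limma. Vim lost its call without WT replicate 1 and without either KO replicate, with a highest adjusted p of 0.0872 over all alternatives. The keratin gene Krt19 (1.49), named after its values were seen, was the fourth that rose, and lost its call without KO replicate 1, with a highest adjusted p of 0.163 in limma over all alternatives.

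Several of these genes are also expressed by other cell types, and in bulk RNA fewer cells of a type and less RNA per cell cannot be told apart. Of 10 smooth muscle markers, 9 had values, with sums of 15.9 and 13.5 FPKM in WT and 20.3 and 17.7 FPKM in KO, most of it Smtn. Des is 1 of these markers and the 1 that passed the test. The 9 fibroblast markers with values summed to 6.19 and 5.97 FPKM in WT and 7.57 and 6.93 FPKM in KO, with none above 3.66 FPKM in a library. Most of this sum was Twist1 and Thy1, and neither passed the test (adjusted p = 0.418 and 0.120 in limma). Loxl1 of the same list was lower in both KO libraries and did not pass either (adjusted p = 0.555 in limma). The 9 features for heart muscle markers summed to 7.34 and 10.1 FPKM in WT and 12.2 and 8.64 FPKM in KO. Sums for the 9 primitive endoderm markers lay between 11.7 and 12.8 FPKM, and those for 6 trophoblast markers were 8.25 and 7.24 FPKM in WT and 9.31 and 10.6 FPKM in KO. In the trophoblast list Tfap2c rose by 0.78 (adjusted p = 0.0187 in limma) and carried most of the sum, whereas Eomes fell from 2.21 and 2.25 FPKM to 0.463 and 0.775 FPKM (log2 fold change -1.73, adjusted p = 0.0154 in limma). None of these markers was listed at 0 in all 4 libraries. The smooth muscle myosin gene Myh11 and the collagen gene Col3a1, named after their values were seen, did not exceed 0.0222 and 0.0154 FPKM in any library. The sums of smooth muscle, fibroblast and trophoblast markers were thus higher in both KO libraries, those of heart and primitive endoderm markers overlapped, and the part of other cell types in the results was not tested. The 13 pluripotency markers summed to 7345 and 7137 FPKM in WT and 7090 and 6657 FPKM in KO. Both KO sums were thus below both WT sums, KO replicate 1 by a small margin under WT replicate 2. Both KO libraries were below both WT libraries for 6 of the 13 genes and above them for 3. Of all tested features, 31.7% were below and 27.0% above. Of these 13, 2 rose and 2 fell, beside the 6.85% and 5.60% of all tested features. The genes with a call are named after their values were seen. Tfcp2l1 rose by 0.39 (adjusted p = 0.0259) and Fgf4 rose by 0.30 (adjusted p = 0.0493) on the log2 scale in limma. Klf4 fell by 0.46 (adjusted p = 0.0177) and Utf1 fell by 0.43 (adjusted p = 0.0491) on the log2 scale in limma. Without 1 library or another Fgf4, Tfcp2l1 and Utf1 lost their calls, with highest adjusted p of 0.197, 0.0829 and 0.159 over all alternatives.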

How the data were processed

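RNA of 2 WT and 2 Bmal1 KO ESC libraries was extracted with TRIzol and depleted of ribosomal RNA. According to the methods and the submitters' processing notes, the authors aligned reads to GRCm38 with TopHat2 2.1.1 and Bowtie2 2.3.0, estimated abundance with Cufflinks 2.2.1 and deposited FPKM per feature. FPKM hold no read counts, so the precision of each value rests on 2 libraries per group.

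Here log2(FPKM + 0.1) was compared for the 12990 features whose mean reached 0.5 FPKM in limma 3.58.1 (R 4.3.3; a variance trend, Benjamini-Hochberg adjustment over all tested features). A call needed an adjusted p under 0.05; folds over 2 are given separately. On simulated libraries, 80% of 200 changed features were recovered among 12954, with 10 false calls. This share is for the 200 features together. Recovery at the size of the differences reported here, such as that of Actb, was not tested. Groups came from the sample titles. The 10 genes and the gene lists were chosen with earlier results of these data known. Named in each list were up to 4 genes with the smallest adjusted p at a mean of at least 1 FPKM, all SRF cofactors and other actins, and at most 3 markers; other called genes are marked as named after their values were seen. Symbols merged into 1 feature were counted once. A few genes of the lists are not reported here and were left out of their counts. Gene positions and transcripts came from GENCODE M21 and promoters from RefSeq (GRCm38.p6), searched with Python 3.11.15. Alternatives changed the pseudocount, the filter, the scaling, the model, the feature set and the libraries used.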

Additional observations from a re-analysis of the deposited data

How the results depend on the processing

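The fitted values and counts were computed again under 14 alternatives fixed at the start, and the share of Actb under the 5 that apply to it; the ratios of Actb to reference genes and the marker sums were not. The log2 fold change of Actb stayed positive in all 14 and ranged from 0.41 to 0.47 when 1 library was left out; it was 0.56 after quantile normalization and 0.51 when only features with a symbol were kept and rescaled. The difference in the share of Actb ranged from 9.04 to 10.3 percentage points when 1 library was left out. The median of the 8 genes was -0.0112 after quantile normalization, -0.0145 with symbols only, and -0.146 to 0.0062 when 1 library was left out. Direction changed for Actg1 (0.0181, quantile normalization), Vcl (0.00374, symbols only) and, over the left-out libraries, Tagln2 (-0.03 to 0.22), Cnn2 (-0.27 to 0.06) and Mkl2 (-0.36 to 0.17, the last without KO replicate 2).

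Over all features, 890 were higher and 728 lower in KO; without the filter 571 and 380 were, with symbols only 1407 were higher, and without the variance trend 457 were lower. With the replicate block 1807 were higher and 2245 lower. Nothing in the labels pairs a WT library with a KO library. The deviations of WT replicate 1 and KO replicate 1 correlated at 0.0712 over the features together. Each of the 8 genes past the filter nevertheless kept the same order of the replicates in both genotypes. Replicate 2 was the higher for Tpm1 and replicate 1 for the others. Among the reference genes, all but Ppia and Sdha kept 1 order as well. Gapdh was higher in replicate 1 of both genotypes (4198 and 3649 FPKM in WT, 4266 and 3695 FPKM in KO). Ppia was higher in replicate 2 in WT (4623 and 4811 FPKM) and in replicate 1 in KO (4569 and 4340 FPKM). A pairing was not tested further, so the block counts are given for comparison only. Leaving out 1 library gave 653 to 1133 higher and 674 to 899 lower. The causes were not tested. Of 36 named genes with a call outside the 10, 16 kept it in every alternative, and Myh9, Dstn, Rhob and Klf4 lost it only without the variance trend. Depth is unknown and limits all low values, those of Acta2, Actc1, Acta1 and Myocd first.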
